A study of Mus musculus with 11 samples.

Results

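Ins2 and Iapp encode the peptide hormones that β cells store and release together, insulin and amylin. The study measured gene expression on 11 Affymetrix arrays, each hybridised with RNA of whole pancreas from female Balb/C mice at an age of 30 days. Every probe set annotated with Ins2 or Iapp was taken, which gave 5 of the 45101 probe sets, 1 for Ins2 and 4 for Iapp, and 2 of the 18194 genes with a probe set. No probe set was annotated with Ins1, the paralogue of Ins2, and none with both insulin genes. The Ins2 probe set carries the suffix that Affymetrix gives to sets with probes that can match other transcripts, so signal from Ins1, whose sequence is close, cannot be told apart from that of Ins2.

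The mice were offspring of dams fed an isocaloric diet with 20% protein (control) or 8% protein (low protein) in gestation, and all dams received the control diet from birth. The offspring were injected daily on days 1 to 5 with streptozotocin (STZ) at 35 mg per kg in citrate buffer, or with vehicle (sham). Of the 4 groups, control sham, low protein sham and low protein STZ had 3 arrays each, and control STZ had 2, numbered 1 and 3. The labels call the arrays of a group biological replicates and give no dam or litter, so offspring of 1 dam could share a group, and litter and maternal diet cannot be told apart.

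Insulin is made as a precursor that is folded in the endoplasmic reticulum, cut in secretory granules and released when blood glucose rises. Mice have a pair of insulin genes, of which Ins2 keeps the ancestral structure. Amylin, also called islet amyloid polypeptide, is a peptide of the calcitonin family that is packed into the same granules, slows gastric emptying and limits food intake. STZ is a glucose analogue that enters β cells through the glucose transporter GLUT2 and alkylates their DNA. In whole pancreas, fewer β cells and less of a transcript per β cell cannot be told apart.

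The promoter of Iapp is shown because Iapp and Ins2 were low on the same arrays and because transcription factors of β cells, PDX1 among them, bind DNA with a TAAT core. In the RefSeq promoter table (GRCm38.p6), 1 of the 2 genes, Iapp, was matched. The 250 bases before the annotated start of Iapp (chr6:142298175-142298424, plus strand) are given 5′ to 3′, with TAAT on either strand (TAAT or ATTA) in capitals.
Iapp promoter: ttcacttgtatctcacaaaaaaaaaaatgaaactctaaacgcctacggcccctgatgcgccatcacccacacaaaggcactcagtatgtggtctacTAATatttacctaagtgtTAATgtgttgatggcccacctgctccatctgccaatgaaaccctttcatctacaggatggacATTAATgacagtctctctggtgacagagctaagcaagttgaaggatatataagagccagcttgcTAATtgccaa

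The window held 5 matches to TAAT or ATTA, starting 154, 136, 74, 72 and 10 bases before the start, with those at 74 and 72 overlapping each other. Of 32851 promoter windows of the same length, 54.9% held at least 1 such match and 5.54% held 5 or more. The E-box core CANNTG, bound by NEUROD1 and many other helix-loop-helix factors, matched 3 times (248, 120 and 111 bases before the start), shared no base with the TAAT matches, was present in 66.2% of the windows and occurred 3 or more times in 12.2%. These matches describe letters in the window and not sites in use.

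Signals are the authors' deposited log2 values per probe set, so a difference of 1 is a doubling. Array medians lay between 7.92 and 7.97, and correlations between arrays between 0.9778 and 0.9946. Control sham 1 and low protein STZ 1 lay at the ends of the first principal component (33.9% of the variance). The tissue label was borne out by acinar markers: all 6 that were measured were above the limit set for dim genes (6.866), with mean levels from 14.15 to 14.85 on the arrays. Signals over all probe sets spread least on low protein STZ 1 (SD 1.52, against 1.57 to 1.67 on the other arrays). The other low protein arrays also lay below all control diet arrays, except low protein STZ 3 (1.62), which exceeded control sham 2 (1.605). Values under a scaling that evens out such differences in spread (cyclic loess) are given beside the main comparisons. Hybridisation controls were also lower on most low protein arrays (lowest 10.88) than on control diet arrays (11.34 to 11.89). Low protein sham 3 and low protein STZ 3 lay above control sham 1 (11.34). The part of these measures in differences that involve diet was not tested beyond cyclic loess and the hybridisation covariate.

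Ins2 was bright on every array and brightest in control sham pancreas. Its log2 signal was 14.81, 15.24 and 14.86 on control sham arrays 1 to 3, and 13.10 and 13.41 on control STZ arrays 1 and 3. It was 14.47, 13.91 and 13.27 on low protein sham arrays 1 to 3, and 12.89, 13.57 and 12.93 on low protein STZ arrays 1 to 3. All 3 control sham arrays stood above the other 8, the nearest of which was low protein sham 1 with a gap of 0.34. The share of tested genes with this separation was not counted, here or for Iapp below. The low protein sham arrays spread over 2.30-fold, the widest range of the groups, and the highest of them lay near control sham while the lowest lay among the STZ arrays.

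The level of Ins2 descended in the order control sham (14.97 ± 0.23, SD, n = 3), low protein sham (13.88 ± 0.60, n = 3), control STZ (13.25 ± 0.22, n = 2) and low protein STZ (13.13 ± 0.38, n = 3). Only the first step of this order separated all arrays of its neighbours, since low protein sham overlapped control STZ and control STZ overlapped low protein STZ. With cyclic loess scaling the last 2 groups changed places (control STZ 13.05 ± 0.24, low protein STZ 13.51 ± 0.47), and low protein sham (14.05 ± 0.54) overlapped control sham (14.68 ± 0.36).

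Iapp had a similar order of arrays at its brightest probe set, 1423509_a_at, which represents the gene in the fit. Its log2 signal was 14.32, 14.85 and 14.27 on control sham arrays 1 to 3, and 12.72 and 12.40 on control STZ arrays 1 and 3. It was 13.69, 12.72 and 12.04 on low protein sham arrays 1 to 3, and 12.15, 12.76 and 12.51 on low protein STZ arrays 1 to 3. The gap between the lowest control sham array and the highest of the other 8, again low protein sham 1, was 0.57. The 3 remaining groups overlapped one another.

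Group means of Iapp were 14.48 ± 0.32 in control sham, 12.82 ± 0.83 in low protein sham, 12.56 ± 0.23 in control STZ and 12.48 ± 0.31 in low protein STZ (SD, n as above). Low protein sham spanned 3.15-fold and included both the highest array outside control sham (low protein sham 1) and the lowest array of all 11 (low protein sham 3). Under cyclic loess, low protein STZ (12.79 ± 0.22) stood above control STZ (12.38 ± 0.21), the reverse of their order as deposited.

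**Figure D1:**
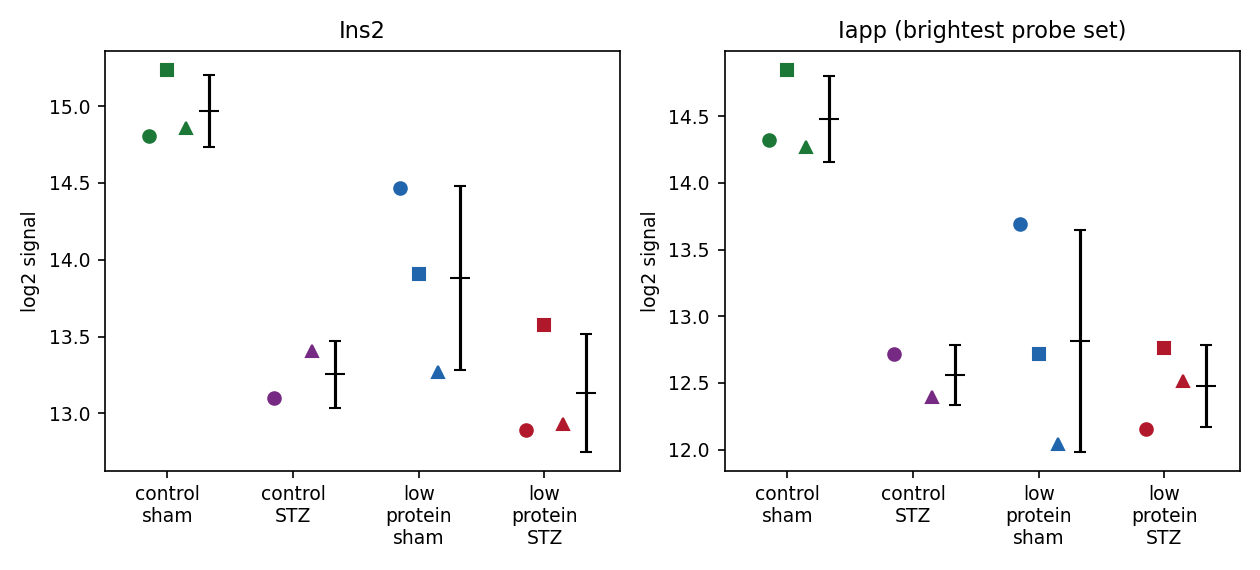
Log2 signal of Ins2 (left) and of the brightest Iapp probe set (right) on each of the 11 arrays, by group; circles, squares and triangles are replicates 1, 2 and 3, and the black bars give the mean and SD (n = 3, or n = 2 for control STZ). All 3 control sham arrays lie above the other 8 for both genes, and low protein sham is the most spread group.

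A difference among the 4 groups was tested in 2 ways. The moderated F test of limma across all 15897 tested genes ranked Ins2 10 and Iapp 28 by unadjusted significance, and neither passed after Benjamini-Hochberg adjustment over all genes (adjusted p = 0.188 for both). No gene passed that F test, while 1573 (9.89%) had an unadjusted p under 0.05. In an exact permutation test over all 92400 assignments of the arrays to groups, p was 0.00675 for Ins2 (F = 12.0) and 0.0188 for Iapp (F = 9.81), both unadjusted, among 6 exact tests made on these genes. With 1 array left out the exact permutation p for Ins2 ranged from 0.00206 to 0.0295 (F from 7.59 without control sham 2 to 20.4 without low protein sham 3). The exact p for Iapp was 0.0546 without control sham 1, 0.0562 without control sham 2 and 0.0546 without control sham 3.

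The other Iapp probe sets gave the same picture at lower signal. At 1437323_a_at the means were 13.99 ± 0.49 in control sham, 11.67 ± 0.11 in control STZ, 12.09 ± 1.01 in low protein sham and 11.82 ± 0.33 in low protein STZ. At 1423510_at they were 12.63 ± 0.51, 10.22 ± 0.40, 10.85 ± 0.87 and 10.50 ± 0.20 in the same order of groups. At 1456004_x_at they were 11.55 ± 0.34, 9.83 ± 0.13, 9.99 ± 0.67 and 9.86 ± 0.24. At each of these probe sets all 3 control sham arrays exceeded the other 8, by 0.54 to 0.64. Across the 11 arrays the Iapp probe sets correlated with each other at r = 0.982 to 0.993 (a description, since they share arrays and a transcript).

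The size of the STZ difference in the control diet depended on the probe set. The dimmer sets 1423510_at and 1437323_a_at gave the largest differences (-2.41 ± 0.43, SE, and -2.33 ± 0.47), and the brightest set gave -1.92 ± 0.39. The dimmest set, 1456004_x_at, whose suffix marks possible matches to other transcripts, gave -1.72 ± 0.32. These correspond to 5.32-, 5.02-, 3.79- and 3.29-fold lower signal. In the fit over every probe set none passed after Benjamini-Hochberg adjustment (limma, adjusted p = 1 for each to 3 digits). The difference between probe sets was not tested. On the control sham arrays the brightest Iapp set lay 1.03 to 1.62 below the highest signal of the array, and Ins2 lay 0.65 to 1.10 below it. Whether closeness to the top of the scale changed the size of the differences was not tested.

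**Figure D2:**
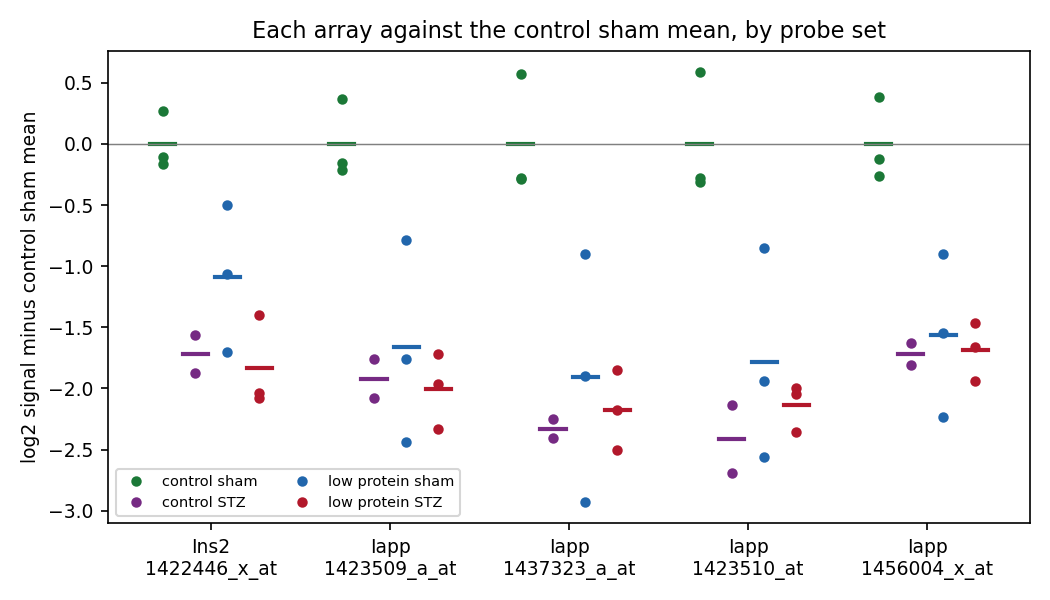
Log2 signal of every array minus the control sham mean (vertical axis) at the Ins2 probe set and the 4 Iapp probe sets, ordered by brightness within the gene; points are arrays, short lines are group means. The 8 arrays outside control sham lie below all control sham arrays at each of the 5 probe sets.

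STZ against sham asks what the neonatal STZ injections left at 30 days. In the control diet both genes were lower on both STZ arrays than on all 3 sham arrays, a separation in this direction shown by 7.72% of the genes tested. The differences were -1.72 ± 0.31 for Ins2 and -1.92 ± 0.38 for Iapp (SE, 2 and 3 arrays; 95% intervals -2.40 to -1.03 and -2.77 to -1.07). They were among the largest on the arrays: counting the gene itself, 2 of 15897 genes (0.0126%) were as negative as Iapp and 3 (0.0189%) as negative as Ins2. Both were among the 2.13% of genes lower at an unadjusted limma p under 0.05. After adjustment over all genes neither passed (limma, adjusted p = 0.999), and no gene did (0%).

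In the low protein diet the STZ difference was smaller in Ins2 (-0.75 ± 0.28, 95% interval -1.36 to -0.14) and in Iapp (-0.34 ± 0.34, interval -1.10 to 0.42). In this comparison 1.91% of genes were lower at an unadjusted p under 0.05, Ins2 among them and Iapp not. For Ins2 this did not hold in 6 of 21 alternative settings, among them array weights (a difference of -0.32) and cyclic loess (-0.54), and the cyclic loess value for Iapp was -0.17. After adjustment 0% passed over all genes (limma, adjusted p = 1 for both to 3 digits). Groups overlapped for both genes: the lowest sham array, low protein sham 3, lay below low protein STZ 2 for Ins2 and below all 3 STZ arrays for Iapp. Low protein sham 1 decided the direction for Iapp, since without it the difference was 0.10, and the value for Ins2 was -0.46. Without low protein sham 3 the values were -1.06 for Ins2 and -0.73 for Iapp. By probe set, Iapp differed by -0.13 to -0.35 in this diet.

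Averaged over both diets, the STZ difference was -1.23 ± 0.21 for Ins2 and -1.13 ± 0.26 for Iapp. After adjustment over all genes neither passed (limma, adjusted p = 0.999 for both), and 0% of genes did. An exact permutation test that exchanged injections within each diet (200 arrangements, two-sided, unadjusted) gave p = 0.01 for Ins2 and p = 0.04 for Iapp. By that test 1.82% of all genes were lower at p under 0.05. The result for Ins2 kept an exact p of 0.0333 or less with any array left out. That for Iapp rose to as much as 0.117 and reached or passed 0.05 on 9 of the 11 removals, all but those of low protein sham 3 and low protein STZ 2.

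Diet was first compared in sham animals, which asks what protein restriction before birth left in pancreas that met no toxin. For Ins2 and at each Iapp probe set the highest low protein array lay below the lowest control array, a separation in this direction shown by 10.2% of genes tested. Ins2 differed by -1.09 ± 0.28 (95% interval -1.70 to -0.47) and Iapp by -1.66 ± 0.34 (-2.42 to -0.90), and the other Iapp probe sets by -1.56 to -1.91. Counting the gene itself, 2 genes (0.0126%) were as negative as Iapp and 5 (0.0315%) as negative as Ins2. Both were among the 7.22% of genes lower at an unadjusted limma p under 0.05, which for Ins2 did not hold with cyclic loess. After adjustment over all genes 0% passed (limma, adjusted p = 0.212 for Ins2 and 0.209 for Iapp). Bright acinar transcripts were lower on the same arrays, with a mean marker level of 14.43 in low protein sham against 14.79 in control sham; their part in the result was not tested. With cyclic loess the differences were -0.64 for Ins2, with overlapping groups, and -1.29 for Iapp.

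After STZ the levels in the 2 diets lay close. Ins2 differed between low protein STZ and control STZ by -0.12 ± 0.31 (95% interval -0.81 to 0.57) and Iapp by -0.08 ± 0.38 (-0.94 to 0.77). These intervals leave room for differences in either direction, and 0% of genes passed (limma, adjusted p = 0.941 for Ins2 and 0.97 for Iapp). The groups overlapped for both genes. The direction was not settled: among the other Iapp probe sets it was positive (0.03 to 0.28), and with cyclic loess it was positive for Ins2 (0.46) and Iapp (0.41). It also turned with array weights (0.16 for Ins2 and 0.09 for Iapp), for Ins2 without control STZ 3 (0.04) and for Iapp without control STZ 1 or low protein STZ 1 (0.08 each).

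Over both injections, low protein diet stood at -0.60 ± 0.21 for Ins2 and -0.87 ± 0.26 for Iapp. Neither passed after adjustment over all genes (limma, adjusted p = 0.205 for Ins2 and 0.147 for Iapp, 0% of genes passing). The exact permutation test within injections gave p = 0.05 for each (200 arrangements, two-sided), which is not under the threshold, in a test by which 9.74% of genes were lower at p under 0.05. With any array left out the exact p ranged from 0.0167 to 0.163 for Ins2 and from 0.0333 to 0.125 for Iapp. The value for Ins2 shrank to -0.09 with cyclic loess (exact permutation p = 0.775) and that for Iapp to -0.44 (p = 0.315).

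Animals with both exposures are compared with animals with neither in the contrast of low protein STZ with control sham. Here Ins2 was 3.57-fold lower (-1.84 ± 0.28) and Iapp 4.01-fold lower (a difference of -2.004 ± 0.34), with no overlap of arrays (11.1% of genes were separated in this direction). Only 1 gene, Iapp itself (0.00629%), was as negative as Iapp, and 3 (0.0189%) were as negative as Ins2. This was the comparison nearest to the threshold, with an adjusted p of 0.0556 for both genes over all genes (limma, 0% of genes passing, against 12.1% lower at an unadjusted p under 0.05). The genes passed without control sham 2 (limma, adjusted p = 0.0307 for Ins2 and 0.0401 for Iapp), without low protein sham 1 (0.0475 and 0.0437), and without low protein STZ 3 (0.027 and 0.0318). Ins2 also passed without low protein STZ 2 (0.0439), and both passed with array weights (0.0166 and 0.017). Over all alternatives the adjusted p ranged from 0.0166 to 0.399, the latter for both genes with the covariate for hybridisation controls. The log2 differences under cyclic loess were smaller in size, at -1.18 for Ins2 and -1.45 for Iapp.

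Each exposure on its own is compared in low protein sham against control STZ. Ins2 was higher after diet alone than after toxin alone by 0.63 ± 0.31 (95% interval -0.06 to 1.31) and Iapp by 0.26 ± 0.38 (-0.59 to 1.11), and neither passed (limma, adjusted p = 1 for both to 3 digits, 0% of genes passing). Under cyclic loess the Ins2 difference was 1.00 and the Iapp difference 0.57. Without low protein sham 1 the values were 0.34 for Ins2 and -0.18 for Iapp.

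The STZ difference was less negative in the low protein than in the control diet, by 0.97 ± 0.42 for Ins2 (95% interval 0.05 to 1.89) and 1.58 ± 0.52 for Iapp (0.44 to 2.72). Both were among the 1.35% of genes positive at an unadjusted limma p under 0.05, which for Ins2 did not hold in 9 of 20 alternative settings, the replicate block among them (a value of 0.84). At the other Iapp probe sets it was 1.59 to 2.06. After adjustment over all genes it did not pass (limma, adjusted p = 1 for both to 3 digits). For Ins2 it was 0.63 with the 3′ to 5′ covariate, a control for RNA quality, and 0.66 without low protein sham 3.

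**Figure D3:**
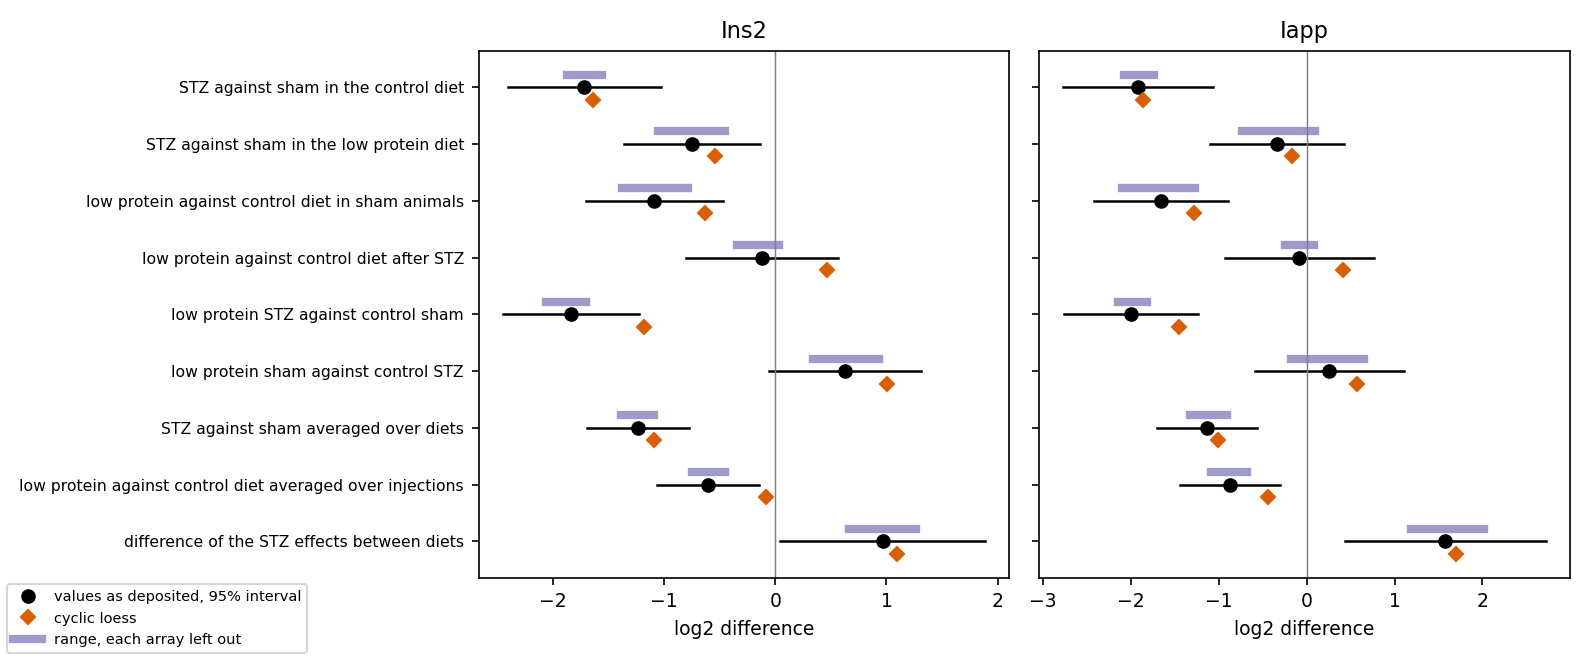
Log2 differences of Ins2 (left) and Iapp (right) in the 9 comparisons; black points are the fit on the values as deposited with 95% intervals, orange diamonds the values with cyclic loess scaling, and purple bars the range when each array is left out in turn. Differences from control sham stay negative under each of these settings, while those between the diets after STZ lie on both sides of 0.

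The islet hormones of other cells offer a scale within each array. Gcg encodes glucagon of α cells, Sst somatostatin of δ cells and Ppy pancreatic polypeptide of PP cells, and the mean log2 signal of the 3 was subtracted from Ins2 and from Iapp on the same array. The offset between probe sets has no meaning of its own, so only its change between arrays is read, and no test was made. The mean of the 3 hormones itself was 11.15 ± 0.35 in control sham, 10.58 ± 0.08 in control STZ, 10.24 ± 0.68 in low protein sham and 10.44 ± 0.09 in low protein STZ. None of the 3 passed after adjustment over all genes (limma, 0% of genes). For STZ in the control diet the differences were -0.82 ± 0.46 for Gcg, -0.53 ± 0.26 for Sst and -0.34 ± 0.25 for Ppy (SE), and for diet in sham animals they were -1.57 ± 0.41, -0.86 ± 0.23 and -0.29 ± 0.22. For STZ in the low protein diet Gcg and Sst stood on the other side of 0, at 0.50 ± 0.41 and 0.23 ± 0.23, and Ppy at -0.14 ± 0.22, so the subtracted mean was itself higher after STZ in that diet (10.44 against 10.24).

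Relative to these hormones, Ins2 was low on the STZ arrays of both diets. The difference was 3.86, 3.68 and 3.92 on control sham arrays 1 to 3, and 3.49, 3.81 and 3.62 on low protein sham arrays 1 to 3. It was 2.46 and 2.88 on control STZ arrays 1 and 3, and 2.38, 3.24 and 2.45 on low protein STZ arrays 1 to 3. All 5 STZ arrays lay below all 6 sham arrays, and the sham groups overlapped. How many genes separate like this on such a scale was not counted, here or for the within-array differences below. Against control sham the means stood at -1.15 in control STZ, -1.13 in low protein STZ and -0.18 in low protein sham. With cyclic loess the separation by injection remained (STZ arrays at most 3.30, sham arrays at least 3.53), while the low protein sham mean (3.75) lay above that of control sham (3.63).

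On this scale Iapp was highest in control sham. Its difference from the 3 hormones was 3.38, 3.29 and 3.33 on control sham arrays 1 to 3, and 2.72, 2.62 and 2.39 on low protein sham arrays 1 to 3. It was 2.09 and 1.87 on control STZ arrays 1 and 3, and 1.64, 2.43 and 2.03 on low protein STZ arrays 1 to 3. The 3 control sham arrays, between 3.29 and 3.38, lay above all others, low protein sham overlapped low protein STZ at its lower end, and the STZ groups overlapped. Against control sham the means stood at -1.36 in control STZ, -0.76 in low protein sham and -1.30 in low protein STZ. The overlaps depended on the scaling, since with cyclic loess no groups overlapped. The arrays then lay at 3.16 to 3.22 in control sham and 2.50 to 2.74 in low protein sham. Those of low protein STZ lay at 2.06 to 2.48 and those of control STZ at 1.77 to 1.98, so all STZ arrays were below all sham arrays, as for Ins2.

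The members were compared with each other in the same way. Iapp minus Ins2 averaged -0.49 ± 0.10 in control sham, -0.69 ± 0.45 in control STZ, -1.06 ± 0.25 in low protein sham and -0.66 ± 0.21 in low protein STZ (SD). The 3 low protein sham arrays (-0.77, -1.19 and -1.23) lay below the 3 control sham arrays (-0.49, -0.39 and -0.59), with a mean against control sham of -0.58. The control STZ arrays lay far apart (-0.38 and -1.01), and the low protein STZ arrays (-0.74, -0.81 and -0.42) overlapped control sham. With cyclic loess the low protein sham mean was -1.09 and the control sham mean -0.44.

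**Figure D4:**
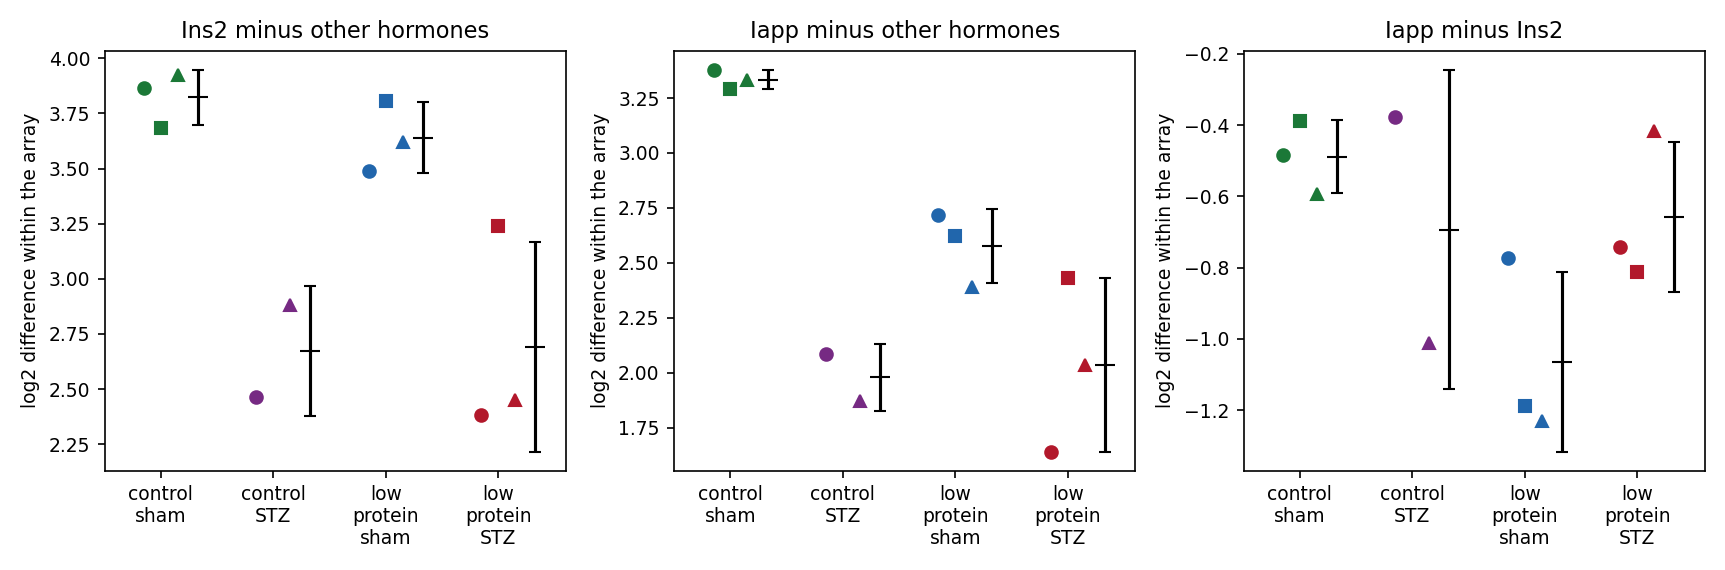
Log2 signal of Ins2 (left) and Iapp (middle) minus the mean of Gcg, Sst and Ppy on the same array, and of Iapp minus Ins2 (right), by group; circles, squares and triangles are replicates 1, 2 and 3, and black bars the mean and SD. In the left panel the 5 STZ arrays lie between 2.38 and 3.24 and the 6 sham arrays between 3.49 and 3.92.

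Across the 11 arrays, Ins2 and Iapp followed each other with a Pearson r of 0.952 and a Spearman rho of 0.845, given as a description since the arrays fall into groups and share scaling. Without the 2 arrays farthest from the Ins2 median, control sham 2 and 3, r was 0.903, and without all 3 control sham arrays it was 0.816 (n = 8). After each group's mean was removed r was 0.876. Among all tested genes each was the nearest to the other.

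**Figure D5:**
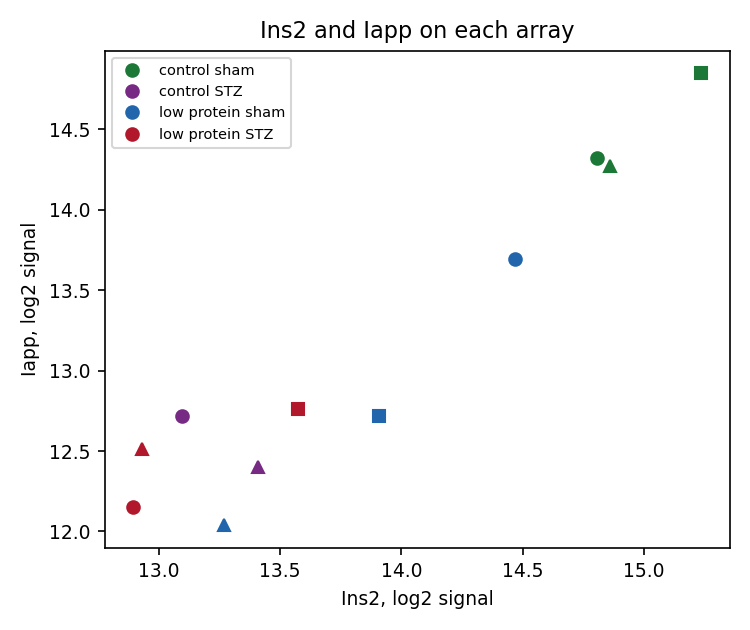
Log2 signal of Iapp against Ins2 on each array, coloured by group; circles, squares and triangles are replicates 1, 2 and 3. The control sham arrays lie at the upper right, low protein sham 1 next to them, and the other 7 arrays between 12.89 and 13.91 for Ins2.

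Next to Iapp, the genes whose pattern was most like that of Ins2 over the 11 arrays were Nufip1, Zdhhc2, Mmrn2, Smim20 and Rrm1 (r from 0.892 to 0.915). Their changes were small: Nufip1 averaged 8.74 in control sham and 8.57 in both STZ groups, and Smim20 10.05 in control sham and 9.63 in low protein STZ. Rrm1 encodes the large subunit of ribonucleotide reductase and Mmrn2 an endothelial matrix protein. Within groups the likeness was 0.862 for Zdhhc2 and 0.516 for Nufip1.

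The genes most like Iapp after Ins2 were Nufip1, Chgb, G6pc2, Chga and Ambp (r from 0.918 to 0.926). Of these, Chga and Chgb encode chromogranins, acidic proteins of endocrine granules, and G6pc2 an islet enzyme that dephosphorylates glucose-6-phosphate. G6pc2 averaged 9.10 in control sham, 6.71 in control STZ, 7.22 in low protein sham and 7.11 in low protein STZ. Chga averaged 9.02, 8.25, 8.49 and 8.26 across those groups.

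Around the hormone genes, 5 short lists follow insulin from gene control to receptor, and limma with adjustment over all genes called no member of any list in the 9 comparisons. Of 14 transcription factors that act on islet genes, 11 were measured and 9 tested. In the control diet 7 of the 9 were lower after STZ (median -0.18, against 0.00 for all genes tested, 49.3% of which were lower), 1 of them at an unadjusted p under 0.05 (2.13% of all genes). Pdx1, the activator of Ins2 and Iapp, differed by -0.31 ± 0.10, Neurod1, an E-box factor, by -0.22 ± 0.12 and Nkx6-1, which maintains β-cell identity, by 0.06 ± 0.11. In low protein sham against control sham the median was -0.13 against -0.02 for all genes, 6 of 9 were lower against 57.7% of all genes, and Pdx1 stood at -0.24 ± 0.09.

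Among 15 genes of prohormone processing and the secretory granule, 14 were measured and 13 tested. In the control diet 9 of the 13 were lower after STZ (49.3% of all genes were), with a median of -0.32. At an unadjusted p under 0.05, 6 were lower and 1 was higher, against 2.13% and 1.92% of all genes. Between diets in sham animals 9 of the 13 were lower (57.7% of all genes), 6 of these at an unadjusted p under 0.05 (7.22%), with a median of -0.20 against -0.02 for all genes. Cpe, the carboxypeptidase that trims the cut precursor, differed by -0.76 ± 0.28 for STZ and -0.81 ± 0.25 for diet. Pcsk1, a convertase that cuts proinsulin, differed by -0.07 ± 0.13 for STZ. Slc30a8, which loads zinc into insulin granules, was not tested, because its mean over all 11 arrays was under the limit for dim genes. Its control sham mean was above that limit (7.04 ± 0.15, against 6.75 ± 0.08 in control STZ).

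Of 12 genes of glucose sensing and the β-cell surface, 10 were measured and 9 tested. In the control diet 8 of the 9 were lower after STZ (median -0.23, with 49.3% of all genes lower), 4 of them at an unadjusted p under 0.05 (2.13% of all genes). Under low protein 3 were lower and 6 higher after STZ (median 0.06, against -0.02 for all genes, of which 57.6% were lower). None of these was at an unadjusted p under 0.05 (2.59% of all genes in either direction). The lists above differed in that comparison: 11 granule genes were lower and 2 higher (median -0.08), and 5 transcription factors were lower and 4 higher (median -0.04). None of those was at an unadjusted p under 0.05 either. Between diets in sham animals 8 of the 9 were lower (57.7% of all genes), with a median of -0.22 against -0.02 for all genes. Of these, 4 were lower at an unadjusted p under 0.05 (7.22% of all genes). Slc2a2, which encodes the transporter that admits STZ, was not tested, because its mean over all 11 arrays was under the limit for dim genes. Control sham alone stood above that limit, with 6.92 ± 0.34, against 5.99 ± 0.02 in control STZ, 6.16 ± 0.27 in low protein sham and 6.003 ± 0.14 in low protein STZ. G6pc2 differed by -2.39 ± 0.33 for STZ in the control diet and -0.12 ± 0.29 in the low protein diet, and by -1.88 ± 0.29 for diet in sham animals. Its control STZ mean (6.71) was under the limit for dim genes (6.866), and its means in low protein sham (7.22) and low protein STZ (7.11) were near that limit. Abcc8, the sulfonylurea receptor of the potassium channel that controls insulin release, differed by -0.03 ± 0.07 in the control diet.

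The next list held receptors and degrading enzymes. Of its 8 genes all were measured and 7 tested, and after STZ in the control diet 4 were lower and 3 higher (49.3% of all genes were lower), none at an unadjusted p under 0.05, as 4.05% of all genes were in either direction. Insr, the insulin receptor, differed by -0.13 ± 0.29 and Ide, the protease that degrades insulin and amylin, by 0.23 ± 0.19. Calcr, the calcitonin receptor that forms amylin receptors with RAMP proteins, was too dim to be tested (5.51 to 5.68 as group means). Of 9 relatives in the insulin and calcitonin peptide families, 7 were measured and 5 tested, and the medians in the 9 comparisons lay between -0.07 and -0.01. Igf1, insulin-like growth factor 1, differed by -0.01 ± 0.14 for STZ in the control diet and by -0.60 ± 0.13 between low protein STZ and control sham (limma, adjusted p = 0.0586). Between diets Igf1 differed by -0.32 ± 0.13 in sham animals and by -0.58 ± 0.14 after STZ (limma, adjusted p = 0.393 and 0.348). Igf2 differed by -0.02 ± 0.07 for STZ in the control diet and by 0.02 ± 0.06 between low protein STZ and control sham. Calcb, a calcitonin gene-related peptide, was too dim to be tested (6.06 ± 0.05 in control sham and 6.12 ± 0.10 in low protein STZ).

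Markers of other cells in the tissue were read beside these values, as the mean log2 level of each list. The 6 measured β-cell markers (of 8, Ins2 and Iapp included) ranged from 9.96 to 10.47 in control sham, 8.94 to 8.98 in control STZ, 8.92 to 9.55 in low protein sham and 8.89 to 9.10 in low protein STZ arrays. Because Ins2 and Iapp are part of this mean, it is not separate from their own values above. The 6 measured acinar markers (of 8) ranged from 14.74 to 14.85, 14.63 to 14.68, 14.41 to 14.45 and 14.15 to 14.49 in the same order. Stromal markers (4 of 4) ranged from 10.59 to 11.52, 10.68 to 10.72, 10.19 to 10.80 and 10.30 to 10.66. Macrophage markers (4 of 4) averaged 9.04 in control sham and 9.03 in control STZ. The part of any of these in the results was not tested.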

How the data were processed

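The deposited values are log2 signals per probe set from the authors. The submitters' processing notes list RMA and Partek 6.5 but not what each did, so the summary of probes and the genome build stay unstated here. Symbols came from GEO's platform annotation: 34958 of 45101 probe sets carried 1 symbol and entered the gene fit, while 932 had several and 9211 had none. The brightest probe set stood for each gene. Genes with a mean over the 11 arrays at or under 6.866 (the 0.25 quantile of probe set means) were not tested.

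A model with 4 group means was fitted across 15897 genes in R 4.3.3 by limma 3.58.1 (two-sided, empirical Bayes), with Benjamini-Hochberg adjustment over all genes and a threshold of 0.05. A second fit covered every probe set. Exact permutation tests and tables used Python 3.11.15. Simulated data holding 200 changed genes were used to test the fit. Same-numbered arrays of different groups did not deviate together, so no pairing was assumed.

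The members, lists and tests were chosen with earlier results of these data known. Named genes were all probe sets of Ins2 and Iapp, the other islet hormones, the first 3 measured genes of each list as written, and the 5 genes with the highest Pearson r with each member. Alternatives were a replicate block, only the groups compared, trend and robust moderation, array weights, cyclic loess, no dim filter, every probe set, covariates for 3′ to 5′ signal and hybridisation controls, and each array left out. Leaving out both ends of the first component was added after seeing the data. The number of arrays limits precision, and the p-values measure the spread between these arrays.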

Additional observations from a re-analysis of the deposited data

How the results depend on the processing

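Of 372 limma differences of Ins2 and Iapp under alternative settings, 352 kept their direction and side of the threshold, 9 passed the threshold and 11 turned direction. Of 72 values of their exact tests, 55 kept both, 13 no longer passed (10 for STZ in Iapp and 3 for its 4-group F) and 4 newly passed (diet). The cause was not tested. Array weights turned Iapp for STZ in the low protein diet (0.036) and both genes for diet after STZ (0.16 and 0.092), and brought low protein STZ against control sham past the threshold (-1.51 for Ins2, -1.75 for Iapp). Diet after STZ also turned with cyclic loess (0.46 for Ins2, 0.41 for Iapp) and, for Iapp, without both ends of the first component (0.078). With cyclic loess the exact test of STZ in Iapp no longer passed (-1.01, exact p = 0.07).

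With each array left out in turn, Iapp ranged from -0.73 to 0.10 for STZ in the low protein diet and from -0.18 to 0.65 for low protein sham against control STZ. Diet after STZ ranged from -0.34 to 0.036 for Ins2 and from -0.24 to 0.078 for Iapp. Low protein STZ against control sham ranged from -2.06 to -1.70 for Ins2 and from -2.15 to -1.82 for Iapp. In the exact tests, STZ ranged from -1.33 to -0.91 for Iapp, diet from -0.75 to -0.45 for Ins2 and from -1.09 to -0.68 for Iapp, and the F of Iapp from 5.72 to 25.1.

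Over all genes limma called 0 in each of the 9 comparisons. An unadjusted p under 0.05 called 644 and 412 genes for STZ in the control and low protein diets, 1655 and 1509 for diet in sham and STZ animals, 2498 for both exposures, 686 for diet alone against toxin alone, 514 and 2438 for the averaged STZ and diet contrasts and 566 for the difference of STZ effects. Array weights called 7 genes for diet in sham animals, 1388 for both exposures and 796 for averaged diet, and without both ends of the first component the counts were 56 for diet in sham animals and 86 for averaged diet. With each array left out, counts ranged from 0 to 1 for STZ in the control diet, 0 to 126 for diet in sham animals (126 without low protein STZ 1), 0 to 1 for diet after STZ, 0 to 705 for both exposures (705 without low protein STZ 3) and 0 to 460 for averaged diet (460 without low protein STZ 3).

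Samples share only a replicate number: deviations of same-numbered arrays correlated at -0.32 to 0.257 (15 pairs), and 2 of 11 arrays correlated best with their own number. With the replicate block Ins2 for STZ in the control diet was -1.59, and no adjusted call of either gene changed.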
